A study of Mus musculus with 4 samples.

Results

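The TOX family has 4 members in the mouse, *Tox*, *Tox2*, *Tox3* and *Tox4*, and all 4 were found by symbol among the 24369 genes listed in the RNA-seq tables. RNA-seq was carried out on naïve CD4 T cells from spleens of WT C57BL/6 mice that had been activated under non-polarizing conditions. Anti-CD3 on the plate and anti-CD28 in the medium activated the cells of both groups, and by the methods recombinant human IL-2 was added, where the labels write recombinant human anti-CD28. They were transduced on day 2, restimulated through CD3 for 5 h on day 5 and sorted as CD4 GFP+ cells. The EV RV group (2 libraries) carried MSCV-IRES-eGFP, a retrovirus that makes GFP alone, and the Tox RV group (2 libraries) carried MSCV-Tox-IRES-eGFP, in which *Tox* and GFP are expressed from a single viral transcript. The libraries of a group came from different mice, whose age and sex are not given in the sources used here, and the values describe pools of sorted cells in culture.

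TOX proteins are DNA-binding proteins with a single HMG box, a domain that bends DNA and recognises its structure more than its sequence. TOX is needed for CD4 T cell development in the thymus and is induced by T cell receptor signalling through calcineurin and NFAT. In T cells under chronic stimulation it is known for sustaining PD-1 and other inhibitory receptors, and TOX2 acts beside it in TFH cells. TOX3 is best known from neurons and breast epithelium, and TOX4 is a widely expressed subunit of a nuclear protein phosphatase complex.

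Over 75 bases in frame, the 4 members were most alike in a stretch that runs into the HMG box. It is shown here because reads can be divided between members only where their sequences are alike, which is counted for *Tox* below. The 75 bases below are the in-frame stretch of the coding sequences with the highest ungapped identity among the 4 genes, taken from the GENCODE M21 transcripts of the GRCm38 (mm10) build and written 5′ to 3′ on the coding strand. They cover the lysine-rich run and the beginning of the HMG box. Capitals mark bases that differ from *Tox*.
Tox (chr4:6722246-6722320, minus strand): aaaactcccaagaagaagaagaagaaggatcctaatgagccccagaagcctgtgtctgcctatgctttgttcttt
Tox2 (chr2:163315840-163315914, plus strand): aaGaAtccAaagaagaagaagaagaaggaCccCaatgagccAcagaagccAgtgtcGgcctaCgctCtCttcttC
Tox3 (chr8:90254383-90254457, minus strand): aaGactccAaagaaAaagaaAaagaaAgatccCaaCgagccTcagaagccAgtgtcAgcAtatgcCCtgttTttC
Tox4 (chr14:52287349-52287423, plus strand): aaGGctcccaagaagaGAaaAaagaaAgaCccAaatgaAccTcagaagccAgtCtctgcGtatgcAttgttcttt

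Of these 75 bases, 51 were identical in all 4 genes, and *Tox2*, *Tox3* and *Tox4* matched *Tox* at 63, 60 and 61 of them. Over the whole coding sequence, aligned end to end, the identity between any pair of members was 65% to 68.3%. The longest run of identical bases that the *Tox* coding sequence shared with a relative's transcript was 20 for *Tox2*, 24 for *Tox3* and 17 for *Tox4*. Of the 1557 windows of 25 bases in the *Tox* coding sequence, 0 occurred in *Tox2* or *Tox4* with at most 1 mismatch, and 8 (0.514%) occurred in *Tox3*. Stretches of 150 bases reached at most 83.3% identity with *Tox*, in *Tox4*.

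Each member was quantified on a single transcript, so the deposited transcript length was the same in all 4 libraries and held no information on isoforms. *Tox* spans bases 6686353 to 6991557 of chromosome 4 on the minus strand and was counted on NM_145711, of 2852 bases, of which the coding sequence of 1581 bases makes up 55.4%. *Tox2* lies on chromosome 2 from 163203125 to 163324170 (plus strand) and was counted on NM_001098799, of 1675 bases. *Tox3* lies on chromosome 8 from 90247040 to 90348343 (minus strand) and was counted on NM_172913, of 3212 bases. *Tox4* lies on chromosome 14 from 52279146 to 52296401 (plus strand) and was counted on NM_023434, of 4458 bases. Reads of the endogenous *Tox* and of the retroviral *Tox* fall on the same row and cannot be told apart in these tables. How much of the *Tox* transcript the vector holds is not given in the sources used here.

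The depth was 46989997 to 74548723 expected counts per library, of which the 45S pre-ribosomal RNA (*Rn45s*) took 24.7% in EV RV replicate 1 and 7.14% to 11.97% in the other libraries. The sorted cells held the defining genes of CD4 T cells. *Cd4* was at 174 to 250 TPM (transcripts per 1e+06 transcripts, a level per length) and *Cd3d* at 341 to 397 TPM. The T cell receptor constant genes were not in the list of genes. Summed over the 5 CD4 T cell markers listed, the level was 1661 and 1136 TPM in EV RV and 1627 and 1342 TPM in Tox RV libraries. Their log2 fold changes, Tox RV against EV RV, ran from -0.84 to 0.41, with 3 of 5 above 0. The summed level of *Cd8a* and *Cd8b1* was 3.32 to 4.98 TPM. Of 5 NK cell markers *Ncr1* and *Klra8* were at 0, *Klrb1c* and *Klre1* were at most at 0.73 and 0.56 TPM, and *Eomes* was at 30.6 to 48.3 TPM. Of the B cell markers *Ms4a1* and *Pax5* were at 0, *Cd79a* was at 0.33 to 1.1 TPM and *Cd79b* at 0.77 to 1.81 TPM. Summed over 6 myeloid markers the level was 7.37 and 7.43 TPM in EV RV and 7.95 and 5.51 TPM in Tox RV libraries, with *Lyz2* at most at 0.05. In such bulk samples, fewer cells of a type and less RNA per cell cannot be told apart.

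The level of the family was set by *Tox4* in EV RV cells and by *Tox* and *Tox4* together in Tox RV cells. The TPM of the 4 genes summed to 51.2 and 53.9 in EV RV replicates 1 and 2 and to 125 and 110 in Tox RV replicates 1 and 2. Of this sum *Tox4* made up 85.6% and 93.6% under EV RV and 44.4% and 47.8% under Tox RV. *Tox* made up 14.1% and 6.26% under EV RV, and under Tox RV 55.3% and 51.7%. The groups did not overlap in the share of either gene, and *Tox2* and *Tox3* together stayed below 1% in every library. A share counts the other members too, so that of *Tox4* is lower in Tox RV cells with no lower level of *Tox4* itself.

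**Figure D1:**
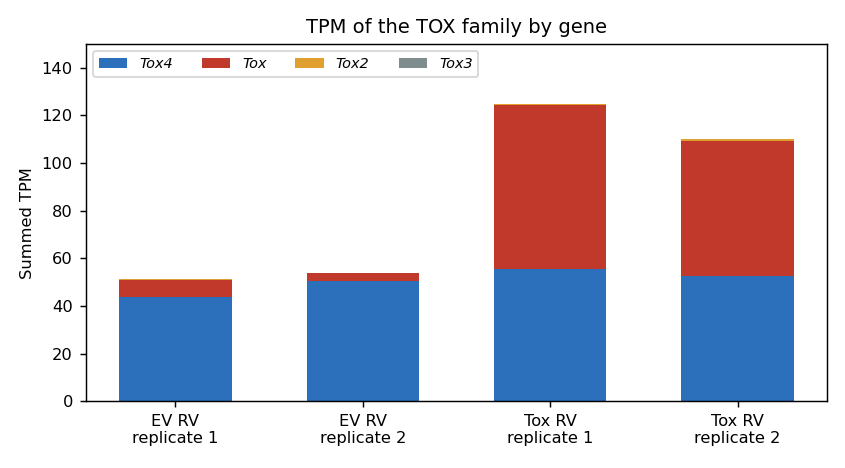
Stacked bars of TPM (linear axis from 0) for *Tox4*, *Tox*, *Tox2* and *Tox3* in each of the 4 libraries. The *Tox4* part lies between 43.9 and 55.4 TPM in all libraries, and the *Tox* part is 7.22 and 3.37 TPM in EV RV and 69.1 and 56.9 TPM in Tox RV, while *Tox2* and *Tox3* are too low to be seen well.

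The groups were compared by edgeR's quasi-likelihood test across all 14143 genes with enough counts, of which *Tox*, *Tox2* and *Tox4* were 3. Calls asked for an adjusted p-value below 0.05, a fold change above 2, and FPKM (fragments per length and depth) averaging more than 2 in a group. By this rule 0 of 14143 genes (percentage called, 0) were called, and 0 members. The unadjusted p-value was below 0.05 for 512 genes (3.62%), 152 higher (1.07%) and 360 lower (2.55%) in Tox RV cells, and *Tox* was among the 152. So was *Tox2*, which was tested only because its Tox RV libraries passed the filter on low counts, so that its direction was set by the filter. By fold alone, 119 genes were more than 2-fold higher (0.841%), with *Tox* and, under the same limit, *Tox2* among them, and 359 were more than 2-fold lower (2.54%), with 0 members. DESeq2, the tool that the methods name, gave an adjusted p-value below 0.05 to 22 of 18183 genes (0.121%), 11 of them higher in Tox RV cells (0.0605%), and *Tox* was the member among these 11.

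*Tox*, the gene carried by the retrovirus, had a level of 7.22 TPM in EV RV replicate 1 and 3.37 TPM in replicate 2, against 69.1 TPM in Tox RV replicate 1 and 56.9 TPM in replicate 2. All 4 libraries lay on the side of their labels, and the lowest Tox RV library was well above the highest EV RV library. These levels rested on 493 and 436 counts under EV RV and on 7683 and 5183 under Tox RV. The group values were 5.29 ± 2.72 TPM (SD, n = 2) in EV RV cells and 63.0 ± 8.63 TPM (SD, n = 2) in Tox RV cells. Within a library, *Tox* in EV RV cells was above 60.2% and 65.3% of all genes listed, and in Tox RV cells above 91.6% and 93.3%.

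On the log2 scale the fold change of *Tox* was 3.68 (standard error, SE, 0.38, 95% interval 2.73 to 4.62), a fold of 12.8. Its unadjusted p-value of 9.44e-05 ranked 2 of 14143, as did its log2 fold change from the top, but after adjustment edgeR gave 0.49, above the threshold. With DESeq2 the log2 fold change was 3.68 and the adjusted p-value 3.79e-24. With any 1 of the libraries left out, edgeR's adjusted p-value was below 0.05. It was 0.0266 without EV RV replicate 1, 0.0222 without EV RV replicate 2, 1.23e-13 without Tox RV replicate 1 and 7.66e-16 without Tox RV replicate 2, each time with the lone library of a group assumed to vary like the other group. The log2 fold change stayed between 3.25 and 4.27 in these fits, the lowest value without EV RV replicate 2 and the highest without EV RV replicate 1. The EV RV libraries themselves differed by 1.02 in log2 CPM of *Tox*, replicate 1 being the higher, and the Tox RV libraries by 0.28.

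**Figure D2:**
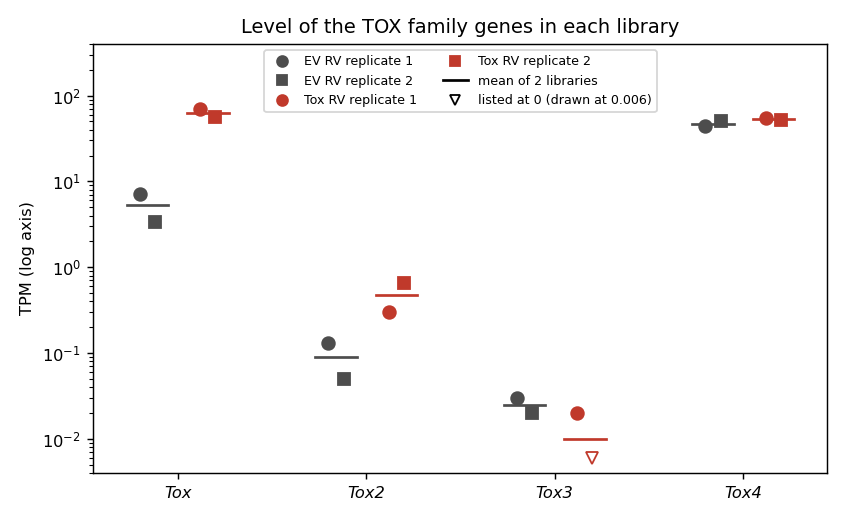
TPM on a log axis of the 4 TOX family genes in each library, with circles for replicate 1, squares for replicate 2, grey for EV RV, red for Tox RV, and a bar at the mean of the 2 libraries. *Tox*, *Tox2* and *Tox4* are higher in both Tox RV libraries, an order found in 18.6% of all genes tested. *Tox2* rests on counts of 4 to 33 and passed the filter on low counts through its Tox RV libraries alone. *Tox4* lies within 43.9 to 55.4 TPM throughout, and *Tox3* is at 0.03 TPM or below.

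*Tox2*, which acts with *Tox* in TFH cells, was scarcely expressed, with counts of 5 and 4 in the EV RV replicates against 19 and 33 in the Tox RV replicates. In TPM this was 0.13 and 0.05 in EV RV libraries and 0.3 and 0.65 in Tox RV libraries. The groups did not overlap, Tox RV being the higher, an order found in 18.6% of all genes tested, and both were below 1 TPM. The EV RV counts were just above 3 counts per library, the floor taken as the limit of detection.

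The log2 fold change of *Tox2* was 2.51 (SE 0.74, 95% interval 0.68 to 4.34), and the p-value by edgeR was 0.0155 before and 0.897 after adjustment (1 after adjustment by DESeq2). From the summed counts of 9 in EV RV and 52 in Tox RV, the ratio was 5.94, with a 95% exact interval of 2.9 to 13.7 that covers counting error only. *Tox2* passed the filter on low counts, which asked for 0.181 CPM in 2 libraries, through the Tox RV libraries alone, so a gene at this level that was tested had to differ. Leaving out 1 library at a time, this log2 fold change ranged from 1.87, without Tox RV replicate 2, to 3.09, without EV RV replicate 1, and the unadjusted p-value by edgeR was 0.157 without Tox RV replicate 2 and 0.0794 without EV RV replicate 2. The expected counts of *Tox2* equalled 1.01% and 0.917% of those of *Tox* under EV RV, and under Tox RV 0.247% and 0.642%. Whether these percentages differ beyond counting error, and whether any *Tox2* counts were reads of *Tox*, was not tested.

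*Tox3* had rounded counts of 2 and 3 in EV RV replicates 1 and 2 and of 3 and 0 in Tox RV replicates 1 and 2. All 4 libraries were at or under the floor of 3 counts, which corresponded to 0.0394 to 0.0711 CPM (counts scaled to the library size by TMM). *Tox3* did not pass the filter and was not tested, and a change was not detectable at this depth. The 0 counts in Tox RV replicate 2 allow a level of up to 0.0578 CPM.

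The level of *Tox4* was 43.9 TPM in EV RV replicate 1 and 50.4 TPM in replicate 2, against 55.4 TPM in Tox RV replicate 1 and 52.6 TPM in replicate 2, from 4772 to 10415 counts. The groups did not overlap, and Tox RV was the higher, an arrangement found in 18.6% of all genes tested. The group values were 47.1 ± 4.64 TPM (SD, n = 2) in EV RV cells and 54.0 ± 2.02 TPM (SD, n = 2) in Tox RV cells. As a log2 fold change this came to 0.28 (SE 0.18, 95% interval -0.16 to 0.71, edgeR adjusted p-value 0.897). The difference did not pass the test, and the interval reached from a fold of 0.893 to a fold of 1.64. With each library left out the log2 fold change lay between 0.14, without EV RV replicate 1, and 0.43, without EV RV replicate 2.

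**Figure D3:**
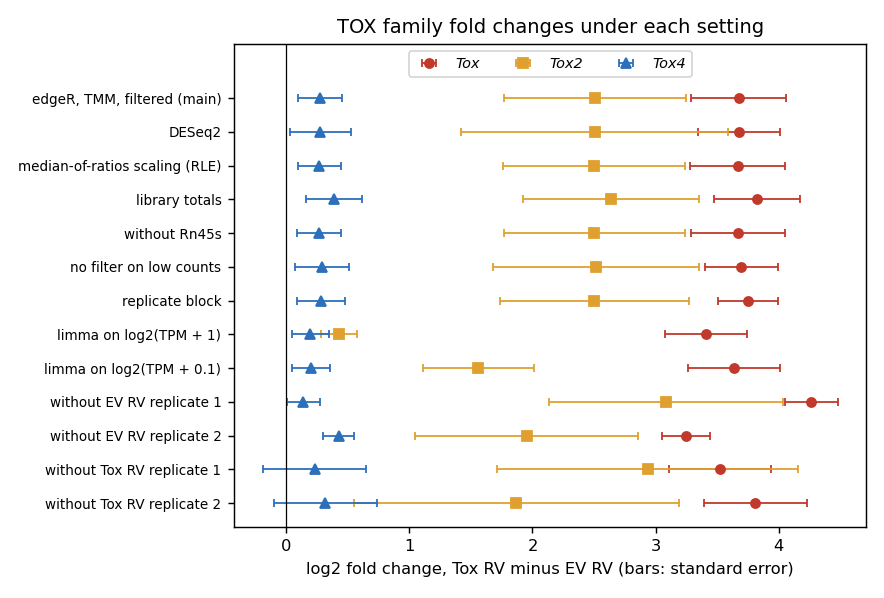
Log2 fold change of *Tox* (circles), *Tox2* (squares) and *Tox4* (triangles) in Tox RV against EV RV cells under the reported fit and the 12 alternative fits, with bars of 1 SE. *Tox* lies between 3.25 and 4.27 in all alternatives, *Tox4* between 0.14 and 0.43, and *Tox2* between 0.43 and 3.09, the lowest value on the log2(TPM + 1) scale.

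By TPM, the order in both EV RV libraries was *Tox4*, *Tox*, *Tox2* and *Tox3*. *Tox4* was 6.08 and 15.0 times as high as *Tox* in EV RV replicates 1 and 2. The lowest *Tox* library, at 3.37 TPM, was far above the highest *Tox2* library, at 0.13 TPM. *Tox2* and *Tox3* differed by a mean of 0.065 TPM, at counts of 5 or fewer, and their order rested on single reads. In the Tox RV libraries *Tox* stood above *Tox4*, by a factor of 1.25 in replicate 1 and 1.08 in replicate 2. The mean difference of 8.96 TPM was close to the SD of *Tox* between the Tox RV libraries (8.63 TPM), so these neighbours in the order did not differ beyond their spread. TPM is set by the transcript length used, and the retroviral *Tox* RNA need not have the length of 2852 bases used here.

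The genes around the members were examined for changes at the loci themselves. *Nsmaf*, the nearest listed gene before *Tox* on chromosome 4 at a distance of 232082 bases, was at 56.4 and 48.1 TPM in EV RV and 46.3 and 52.5 TPM in Tox RV libraries, with log2 fold change 0.0039 (SE 0.17). The nearest listed gene after *Tox*, the noncoding *8430436N08Rik*, had at most 1 count in any library. *Gm11802*, an antisense gene inside the *Tox* span, was not in the list of genes, and since the use of strand is not stated, reads of this gene cannot be told apart from those of *Tox* where their exons overlap. The neighbours of *Tox2* were also nearly silent, *Jph2* at 0 counts and *Gtsf1l* at 7 to 14 counts. Those of *Tox3* were *Sall1*, at 0 counts, and *Chd9*, at 5.25 to 6.13 TPM with log2 fold change -0.10 (SE 0.16).

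*Tox4* overlaps *Rab2b* at its beginning and *Mettl3*, a subunit of the RNA m6A methyltransferase, at its end, both on the other strand. *Rab2b* was at 5.06 to 6.76 TPM with log2 fold change 0.22 (SE 0.21), and *Mettl3* at 23.5 to 27.8 TPM with log2 fold change 0.19 (SE 0.18). Both were less abundant than *Tox4*, and reads in the overlaps could be given to either gene unless strand was used. Further out, *Chd8* and *Sall2* had log2 fold changes of -0.16 and -0.07. None of these neighbours had an unadjusted p-value below 0.05 where it was tested.

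Likeness over the libraries was measured as the root mean square difference of log2 CPM, centred on the mean of each gene, over the 4 libraries. The 3 genes most like *Tox* were *Acpp* (0.60), *Xcl1* (0.67), which encodes a chemokine for XCR1+ dendritic cells, and *Gcnt1* (0.82), which encodes a core 2 glycan-branching enzyme. Of all other genes tested, 0 came within 0.25 of *Tox*, so these are the nearest of distant patterns. *Xcl1* was at 148 and 85.7 TPM in EV RV and at 854 and 436 TPM in Tox RV libraries. The genes most like *Tox2* were *Ankrd34b* (0.31), *Snrpn* (0.46) and *4933422A05Rik* (0.48), which all had at most 21 counts in any library. They had 1 to 8 counts in EV RV libraries and passed the filter on low counts through their Tox RV libraries alone, as did *Tox2*. Only genes kept by the filter were compared, so the direction they share with *Tox2* was set by the filter. Those most like *Tox4* were *Vta1* (0.0052), *Chmp2a* (0.0063) and *Gdap2* (0.0079), with 6474 genes within 0.25, since the pattern of *Tox4* over the libraries was nearly flat. Likeness over 4 libraries is a description only.

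Other proteins with an HMG box include the SOX, TCF and HMGB families. Of 42 such genes listed, 26 were tested, and 0 passed an adjusted p-value of 0.05. Their median log2 fold change was -0.0029, that of all genes tested being 0.0036, with 13 of 26 above 0. *Kmt2d*, a histone H3K4 methyltransferase, was the 1 gene of these with an unadjusted p-value below 0.05 (2.55% of all genes tested, in this direction) and also the lowest. It was at 65.3 and 25.7 TPM in EV RV and at 21.96 and 17.7 TPM in Tox RV libraries, with log2 fold change -1.10 (SE 0.42, edgeR adjusted p-value 0.897). EV RV replicate 1 stood apart from the other 3 libraries in this gene. The highest log2 fold change in the list was that of *Sox10*, a neural crest factor, at 1.14 from 0.06 to 0.21 TPM. It rested on 4 and 12 counts in EV RV and on 15 and 18 counts in Tox RV libraries. *Sox10* passed the filter on low counts through its Tox RV libraries alone, so its direction was set by the filter. *Hmgb1*, the most abundant HMG-box gene and a nonspecific chromatin protein, was at 199 and 329 TPM in EV RV and 283 and 375 TPM in Tox RV libraries, so its groups overlapped. *Tcf7* and *Lef1*, the HMG-box factors of naive and memory T cells, also overlapped between the groups, with *Tcf7* at 194 and 51.6 TPM in EV RV and 109 and 143 TPM in Tox RV libraries.

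TOX4 works with PNUTS (*Ppp1r10*), WDR82 and a catalytic subunit of protein phosphatase 1. All 5 genes of this complex were tested, and in all 5 the groups overlapped in CPM, while 36.0% of all genes tested had groups that did not overlap. Log2 fold changes ran from -0.24 for *Ppp1r10* to 0.21 for *Ppp1ca*, the most abundant of them at 346 to 436 TPM. Of these 5 genes, 0 had an unadjusted p-value below 0.05.

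TOX has been linked with the HBO1 histone acetyltransferase complex, whose catalytic subunit is encoded by *Kat7*. Of its 9 genes, all tested, 1 was lower at an unadjusted p-value below 0.05 (2.55% of all genes tested) and 0 at an adjusted one. This was *Brpf3*, a scaffold subunit, at 10.1 and 8.09 TPM in EV RV and 5.28 and 6.44 TPM in Tox RV libraries, log2 fold change -0.54 (SE 0.20). *Kat7* itself, the most abundant, was at 27.6 to 33.8 TPM with a log2 fold change of -0.04, and *Jade3* had the highest, 0.31. The median of the list was -0.02.

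Upstream of *Tox* in T cells, calcineurin and NFAT switch on *Tox* and the NR4A factors. Of 11 such genes, all tested, 0 passed an adjusted p-value of 0.05, and the median log2 fold change was -0.02. *Nr4a2*, a nuclear receptor induced by T cell receptor signals, was the 1 gene of these with an unadjusted p-value below 0.05, at 0.0175 (1.07% of all genes tested, in this direction). It was at 7.83 and 7.03 TPM in EV RV and at 12 and 9.87 TPM in Tox RV libraries, log2 fold change 0.64 (SE 0.19). In CPM, 2 of the 11 genes (18.2%), *Nr4a2* among them, were higher in Tox RV without overlap, against 18.6% of all genes tested. *Nr4a1* had the highest log2 fold change, 0.79, but its groups overlapped. The lowest was that of *Nfatc2*, at -0.74, with 35.5 TPM in EV RV replicate 1 and 12.4 to 16.4 TPM in the other 3 libraries. *Ppp3cc*, a calcineurin catalytic subunit and the most abundant of the list, was at 92.9 to 113 TPM.

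Inhibitory receptors are the best known genes downstream of TOX. The list used here also holds *Cd200*, which encodes a ligand, and *Entpd1*, which encodes an ectonucleotidase. Of its 10 genes, all tested, 3 had an unadjusted p-value below 0.05. Of these, 2 were higher and 1 lower (1.07% and 2.55% of all genes tested), and 0 genes had an adjusted one. *Pdcd1*, which encodes PD-1 and was known as a target of TOX before this experiment, was at 21.96 and 20.7 TPM in EV RV and at 75.9 and 61.8 TPM in Tox RV libraries. Its log2 fold change was 1.77 (SE 0.19), and the adjusted p-value was 0.49 by edgeR and 1.06e-08 by DESeq2. *Cd160* was at 15.3 and 9.46 TPM in EV RV and at 29.4 and 20.6 TPM in Tox RV libraries, log2 fold change 1.11 (SE 0.29). *Tigit* lay the other way, at 39.1 and 20.9 TPM in EV RV and 16.3 and 14.8 TPM in Tox RV libraries, log2 fold change -0.85 (SE 0.31). NK cells also express *Cd160*, and the summed level of 5 NK cell markers was 38.6 and 48.5 TPM in EV RV and 31.8 and 30.8 TPM in Tox RV libraries, nearly all of it *Eomes*, which activated T cells also express, and the part of NK cells in the result was not tested. The cells were isolated as naïve CD4 T cells and sorted as CD4 GFP+ cells, and how far this removed NK cells was not tested. *Ctla4*, the most abundant of the list, was at 226 to 310 TPM, and its groups overlapped. In CPM the groups did not overlap for 6 of the 10 genes, with Tox RV higher in 2 and lower in 4, against 18.6% and 17.4% of all genes tested. *Cd200* and *Entpd1* were among the 4 lower genes, at log2 fold changes of -0.59 and -0.39. The median of the list, *Cd200* and *Entpd1* included, was -0.16, and it was 0.04 without EV RV replicate 2.

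TOX and TOX2 also support the TFH programme. Of 12 TFH genes, 11 were tested, 1 was higher at an unadjusted p-value below 0.05 (1.07% of all genes tested), and 0 at an adjusted one. This was *Pou2af1*, a lymphocyte coactivator, at 4.08 and 2.01 TPM in EV RV and at 6.7 and 6.14 TPM in Tox RV libraries, log2 fold change 1.18 (SE 0.35). *Il21*, a TFH cytokine, had the highest log2 fold change, 1.41, which rested on Tox RV replicate 1 at 2.29 TPM, the other libraries being at 0.44 to 0.67 TPM. *Il6ra* had the lowest, -0.66, and *Batf*, the most abundant, was at 38.9 TPM in EV RV replicate 1 and at 119 to 131 TPM in the other 3 libraries. The median log2 fold change of the list was 0.23, but -0.02 without EV RV replicate 2 and -0.05 without Tox RV replicate 1.

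In the thymus TOX acts before the factors that fix the CD4 and CD8 lineages. Of 11 genes of these lineages, all tested, 0 had an unadjusted p-value below 0.05. *Ets1*, the most abundant, was at 304 to 368 TPM, *Cd4* had the highest log2 fold change, 0.38 (SE 0.18), and *Runx3*, a CD8 lineage factor, the lowest, -0.63 (SE 0.44). *Runx3* was at 58.3 TPM in EV RV replicate 1 and at 21.1 to 26.4 TPM in the other 3 libraries. The median was -0.10 over all 4 libraries and 0.07 without EV RV replicate 1.

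**Figure D4:**
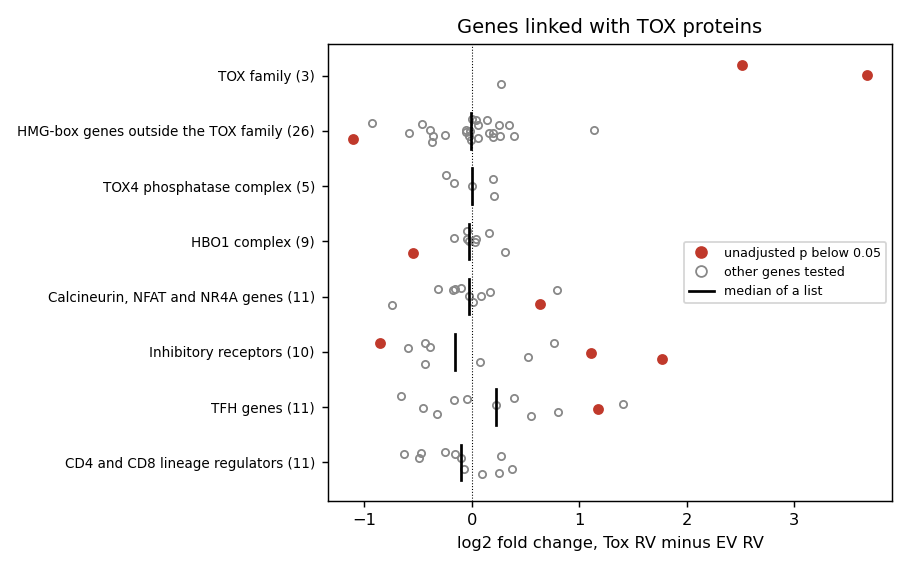
Log2 fold change in Tox RV against EV RV cells of the TOX family genes tested and of the tested genes of 7 lists (number tested in brackets), with filled red points for an unadjusted p-value below 0.05 and a vertical bar at the median of each list. *Tox* (3.68) lies to the right of every gene of the lists, of which *Pdcd1* (1.77) is the highest, *Tox2* (2.51) rests on few counts and passed the filter through its Tox RV libraries alone, and the list medians lie between -0.16 and 0.23.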

How the data were processed

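Per the methods, the authors ran fastqc, mapped reads by bowtie (the labels list Bowtie and Bowtie2) and obtained gene values per library from RSEM on mm10. Versions and the use of strand are not given in the sources used here. The expected counts deposited are estimates by RSEM and are not normalized. Deposited TPM and FPKM values are RSEM's own, per length. The deposited transcript length exceeded the effective length by a median of 149 bases, as for reads of a single length, and whether both mates of a pair were counted is not stated. The table of all libraries, named as TPM, was not used because its columns do not sum to 1e+06.

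Expected counts were rounded and tested with edgeR 4.0.16 in R 4.3.3 (filterByExpr, minimum count 10, TMM, glmQLFit and glmQLFTest, Benjamini-Hochberg adjustment over all genes tested). Standard errors came from the fold change and the F statistic. DESeq2 1.42.0 and limma 3.58.1, the latter on log2(TPM + 1) and log2(TPM + 0.1), were alternatives, with other scalings, no filter, the replicate number as a block and each library left out. In data simulated with 100 genes changed 2-fold and 100 changed 4-fold, edgeR recovered 22% and 78% of them at an adjusted p-value below 0.05. DESeq2 recovered 35% and 82%. False calls among unchanged genes numbered 18 with edgeR and 33 with DESeq2. The simulated counts were drawn gene by gene, with no difference between replicates that many genes share. These rates therefore need not hold in the data, where edgeR gave an adjusted p-value below 0.05 to 0 genes. The exact interval from summed counts and the floors of counts cover counting error only. The intervals of the log2 fold changes come from the edgeR fit and also take in the spread between libraries.

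The members and the 7 gene lists were chosen with earlier results of these data known. Named genes were the 4 members, list members with an unadjusted p-value below 0.05, the most abundant member and those with the highest and lowest fold change of each list, the 3 genes most like each member tested, and the nearest or overlapping listed genes. *Tcf7* and *Lef1* were added after their values were seen. Positions and sequences are from GENCODE M21 (GRCm38, that is mm10). A value for 1 of the cell type markers is not reported here.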

Additional observations from a re-analysis of the deposited data

How the results depend on the processing

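The direction of *Tox*, *Tox2* and *Tox4* was the same in all 12 alternative fits, and the adjusted p-values of *Tox2* (0.215 to 1) and *Tox4* (0.104 to 1) stayed above 0.05 in all of them. These fits reused the same libraries, the retrovirus carries *Tox*, and the filter set the direction of *Tox2* in the reported fit. The shared direction was therefore no independent support. *Tox3* had no value, since all libraries were at or under the floor. The adjusted p-value of *Tox* fell below 0.05 in 7 alternatives. The log2 fold change was 3.68 with DESeq2, 3.70 with all genes kept, 3.75 with a replicate block (adjusted p-value 1.08e-05), and 3.25 to 4.27 with each library left out, while the remaining 5 gave adjusted p-values of 0.504 to 0.854. The number of genes called, 0 as reported, was 21 with DESeq2, 20 without the filter, 15 with the replicate block and 1 to 290 with each library left out (1 without EV RV replicate 1, 290 without EV RV replicate 2, 9 without Tox RV replicate 1, 15 without Tox RV replicate 2). The cause was not tested. Nothing in the labels ties same-numbered replicates to 1 mouse, so the pairing is by number alone. The differences between replicates 1 and 2 correlated across genes between the groups (r = 0.30). Scaling by library totals moved the median of all genes to 0.12, and with it the medians of the HMG-box genes (0.13), the TOX4 complex (0.12), the HBO1 complex (0.094) and the TFH genes (0.37). The TOX4 complex was at -0.080 on log2(TPM + 1) and -0.081 on log2(TPM + 0.1). With each library left out the medians were -0.066 to 0.078 for HMG-box genes, -0.017 to 0.019 for the TOX4 complex, -0.10 to 0.092 for the HBO1 complex, -0.26 to 0.044 for inhibitory receptors, -0.049 to 0.34 for TFH genes and -0.24 to 0.070 for lineage regulators. Counted in reads and not per length, the share of *Tox* in Tox RV cells was 42.1% and that of *Tox4* 57.7%, which puts *Tox4* first; that of *Tox3* in EV RV cells was 0.0326% by FPKM. Effective lengths were 2703, 1526, 3063 and 4309 bases for *Tox*, *Tox2*, *Tox3* and *Tox4*. On log2(TPM + 1), 1 of the 3 genes most like *Tox*, 0 of those most like *Tox2* and 2 of those most like *Tox4* remained.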
